A study of Caenorhabditis elegans with 2 samples.

Results

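The cytosolic ribosomal protein genes of Caenorhabditis elegans were described here for where RNA polymerase II peaks lay around them. They were taken as all protein-coding genes of the Ensembl WBcel235 annotation whose names begin with rpl-, rps- or rla-, which gave 81 of 19973 protein-coding genes on chromosomes I to V and X. By name, 47 of these are large-subunit genes (rpl-), 31 small-subunit genes (rps-) and 3 acidic stalk genes (rla-). A gene was said to have a summit when the deposited summit of a peak lay between 500 bp upstream of its annotated start and 500 bp beyond its annotated end. Such a window can hold several genes, so the genes that share a summit are named where single summits are described.

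The peaks came from chromatin immunoprecipitation and sequencing of AMA-1, which is the largest of the subunits that make up RNA polymerase II. The material was whole late embryos of the wild-type strain N2, of pooled males and females and of unknown age, as 2 biological replicates of a single condition with no transgene or treatment in the labels. Each replicate has a ranked list of 30000 relaxed peaks, both together have a pooled list of 30000, and 476 peaks passed the irreproducible discovery rate (IDR), a measure of how well a peak repeats between replicates. Of the 476, 217 overlapped the 1000 highest peaks of both replicates, so passing did not require a high rank in each. The IDR peak at the gene rpl-43 overlapped no replicate 2 peak at all. Being in the IDR list therefore does not by itself show that a peak was found in both libraries. Read depth is unknown for both libraries, and no control sample was analysed here. Height is the authors' signal value, a caller score on an unknown scale, and it served here to rank peaks within a list, with rank 1 the highest. In whole embryos, polymerase on a gene in fewer cells and less polymerase per cell cannot be told apart.

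Cytosolic ribosomes are built from a small and a large subunit, each a shell of proteins on ribosomal RNA, and growing cells transcribe the genes for these proteins heavily. In C. elegans many messages, those of ribosomal proteins among them, receive a short spliced leader just upstream of the coding sequence, so the annotated start of such a gene is often the splice site and not the place where polymerase begins. Neighbouring genes on the same strand can also be transcribed together as operons, and some ribosomal protein genes carry small nucleolar RNA (snoRNA) genes in their introns.

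The letters around the annotated starts bear on where a summit is placed. Below, the 30 bases directly before the start are given for 4 members that have high summits, with TTTCAG, a sequence of the kind found at spliced leader acceptor sites, in capitals. All sequences are from the RefSeq copy of WBcel235 (ce11) and read 5′ to 3′ on the strand of the gene.

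rpl-15 (chrIV:654577-654606, minus strand): atctcgttattctaaccttttttcTTTCAG

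rps-28 (chrIV:1659661-1659690, plus strand): ttttgtctttataatttcaatttcTTTCAG

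rps-13 (chrIII:6374998-6375027, minus strand): taaactcgacattttatcatcttcTTTCAG

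rps-11 (chrIV:11602611-11602640, plus strand): atgatgttcgattcaaatgtttttttgcag

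TTTCAG made up the last 6 bases before the annotated start in 40 members (49.4%), against 12.3% of all protein-coding genes. Anywhere in the 30 bases before the start it was found on the gene's strand in 41 members (50.6%, all genes 15.8%) and on the other strand in 1 (1.23%, all genes 1.9%). The median distance from the annotated start to the first coding base was 8 bp. For most members the annotated start was thus almost at the coding sequence. The rps-11 sequence ends in another AG and shows that TTTCAG was not present in every member with a high summit.

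The second set of sequences is the 101 bases around summits that lay upstream of the annotated start. The summit is base 51 and the capitals mark matches to GTCTCNCNNCG, searched on both strands. This motif was read from the summits of some of these genes after their sequences had been seen.

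rps-11, replicate 2 rank 40 (chrIV:11602238-11602338, plus strand): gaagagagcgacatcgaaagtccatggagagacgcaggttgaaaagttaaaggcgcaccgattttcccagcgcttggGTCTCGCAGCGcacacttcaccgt

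rpl-3, replicate 2 rank 361 (chrIII:3867547-3867647, plus strand): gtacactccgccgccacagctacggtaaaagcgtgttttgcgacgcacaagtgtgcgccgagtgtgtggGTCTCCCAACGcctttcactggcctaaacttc

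rps-13, replicate 2 rank 510 (chrIII:6375128-6375228, minus strand): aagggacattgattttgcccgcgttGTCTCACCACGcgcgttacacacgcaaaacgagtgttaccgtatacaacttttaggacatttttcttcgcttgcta

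rpl-29, replicate 2 rank 632 (chrIV:13881908-13882008, plus strand): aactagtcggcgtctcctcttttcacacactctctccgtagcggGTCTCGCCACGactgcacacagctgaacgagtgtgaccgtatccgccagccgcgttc

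rpl-36, replicate 1 rank 890 (chrIII:7179808-7179908, plus strand): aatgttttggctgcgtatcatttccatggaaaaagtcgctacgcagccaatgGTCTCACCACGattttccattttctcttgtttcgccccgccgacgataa

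rpl-15, replicate 2 rank 80 (chrIV:654864-654964, minus strand): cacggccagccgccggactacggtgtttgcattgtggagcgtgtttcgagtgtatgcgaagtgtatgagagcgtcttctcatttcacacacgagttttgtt

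GTCTCNCNNCG was found in the 500 bases before the start of 31 members (38.3%), against 3.16% of all protein-coding genes. Without the 6 genes it was read from it was found in 25 of the other 75 (33.3%). It lay 162 to 405 bp upstream, with a median of 276 bp, and on the gene's own strand in 24 of the 31. Head-to-head neighbours share a copy, so the matches stood at 29 distinct places. The windows of rpl-15 above and of rps-28 held no match. Most of the sequences shown were chosen because they carry it, and most member summits do not: the 101 bases around the summit held it at 1 of 13 IDR summits at members (all IDR summits 1.47%). Among the 1000 highest peaks it was at 2 of 26 member summits in replicate 1 (all summits 1.1%) and at 4 of 21 in replicate 2 (all summits 1.8%). Upstream summits were found with and without the motif. Among the 5000 highest peaks of replicate 1, 12 of 31 members with it and 13 of 50 without it had a summit in the 500 bp before the start, and in replicate 2 the counts were again 12 of 31 and 13 of 50. In the pooled list they were 12 of 31 and 19 of 50. These are descriptions of letters, not of a bound factor.

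Ribosomal protein genes had summits high in every list. In the IDR list 14 of 81 members (17.3%) had a summit, against 2.44% of all protein-coding genes. By subunit these were 7 of 47 large-subunit, 6 of 31 small-subunit and 1 of 3 stalk genes. Among the 1000 highest peaks, 23 members (28.4%) were reached in replicate 1, where the share over all genes was 5.06%, and 19 (23.5%) in replicate 2, where it was 4.76%. In either library the count was 33 (40.7%, all genes 7.89%). Among the 476 highest peaks of each library, as many as the IDR list holds, the counts were 13 members (16%, all genes 2.55%) in replicate 1 and 10 (12.3%, all genes 2.35%) in replicate 2. Members are short, with a median length of 754 bp against 2027 bp for all genes, and their windows overlap those of neighbours, so summits were also counted per length of window. The member windows held 90.4 IDR summits per Mb against 5.66 per Mb for the windows of all protein-coding genes, 16 times as many. The 476 highest peaks of replicate 1 alone gave a ratio of 14.7 and those of replicate 2 alone 12.6.

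Further down the lists most members had a peak, and both the share with a peak and its rank differed from all genes. Among the 5000 highest peaks 60 members (74.1%) were reached in replicate 1 (all genes 18%) and 45 (55.6%) in replicate 2 (all genes 18.2%). In both libraries at that depth the count was 39 (48.1%, all genes 9.39%). In the full pooled list 79 members (97.5%) had a summit, and so did 49.6% of all genes. The full list of replicate 1 gave 78 members (96.3%, all genes 46.6%) and that of replicate 2 gave 73 (90.1%, all genes 61.3%). The median best rank was 2094 over these 79 members and 8223 over all 9906 genes with a summit. In replicate 1 it was 2241 against 7417, and in replicate 2 it was 2192 against 10002. Small-subunit genes had a median best pooled rank of 1301 and large-subunit genes 2164. In replicate 1 the order was the other way, with 2283 for small-subunit and 2208.5 for large-subunit genes, and in replicate 2 the medians were 1225.5 and 3566. The order was not the same in both libraries.

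**Figure D1:**
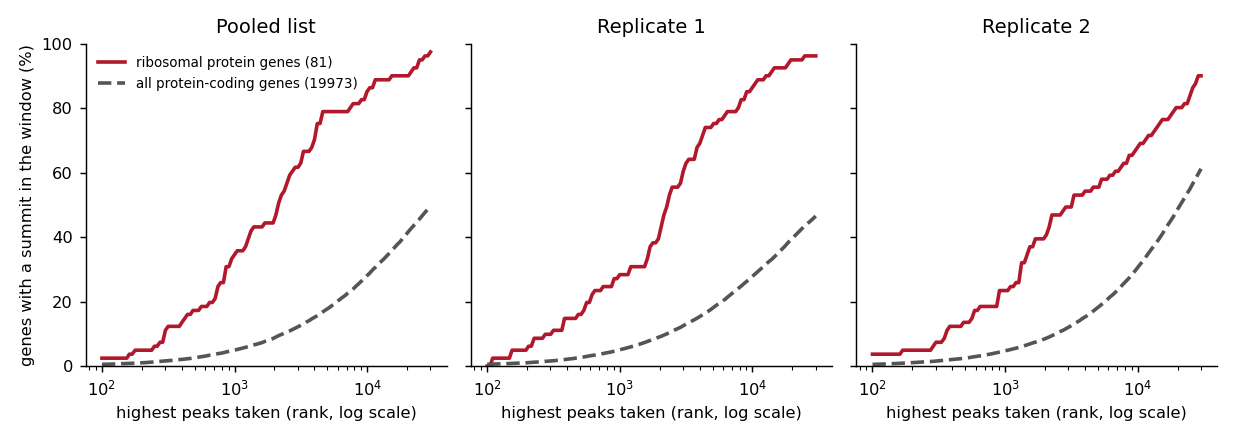
Share of genes (y axis, percent) with a summit in their window as the list is read down from the highest peak (x axis, number of highest peaks, log scale), for ribosomal protein genes and for all protein-coding genes in each list. At 1000 peaks the ribosomal protein genes stand at 28.4% in replicate 1 and 23.5% in replicate 2, and all genes at 5.06% and 4.76%.

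The same measure was taken for other genes of the translation machinery. Of 70 genes of the mitochondrial ribosome (mrpl- and mrps-), which is a separate particle, 2 (2.86%) had an IDR summit, mrpl-51 and mrpl-40, which is near the share over all genes. Translation factors had 3 of 41 (7.32%), which were eef-1A.2, iff-2 and eef-2. Of 27 ribosome biogenesis and nucleolar genes 3 had one, namely pro-1, imp-3 and ncl-1. The order of the lists depended on how many peaks were taken. At the 1000 highest peaks the ribosomal protein genes (28.4%) and the biogenesis genes (25.9%) were close in replicate 1, with translation factors at 7.32%, and in replicate 2 they stood at 23.5%, 22.2% and 19.5%. At the 476 highest the biogenesis genes stood above the ribosomal protein genes in both libraries, at 18.5% against 16% in replicate 1 and 18.5% against 12.3% in replicate 2. Among the 1000 highest of both replicates the biogenesis genes were also above, with 4 of 27 (14.8%) against 9 of 81. At the 5000 highest peaks the mitochondrial ribosomal genes stood above all genes, at 40% in replicate 1 (all genes 18%) and 28.6% in replicate 2 (18.2%). Translation factors stood at 46.3% and 53.7% there, biogenesis genes at 40.7% in each, and ribosomal protein genes at 74.1% and 55.6%. These shares rest on few genes and were not tested against each other.

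The 14 members with an IDR summit held 13 distinct summits, at ranks 89 to 475 of 476 and with signal values from 49.87 to 87.7. At each of these members the rank and signal value equalled those of its best pooled summit. The IDR and pooled lists are therefore not separate evidence at these genes. Peak positions below are on ce11. Replicate ranks beside an IDR summit belong to the highest replicate peak that overlapped the IDR peak, whose own summit could lie elsewhere. Of the 13, 11 also lay in the window of a protein-coding gene that is no ribosomal protein gene, 1 was shared between a pair of ribosomal protein genes and 1 was in no other window. Over all IDR summits in windows of protein-coding genes, 40.3% lay in more than 1 window. Among the 1000 highest peaks of replicate 1, 21 of 26 summits at members were shared with another kind of gene (all summits in more than 1 window 42.8%), and in replicate 2 it was 17 of 21 (all 27.8%). For most of these summits the data therefore do not say which gene the polymerase was transcribing.

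Among the small-subunit genes, the summit at rank 89 (peak chrI:14759480-14759572, narrower than the usual 350 bp) lay 427 bp upstream of rps-26, whose protein lines the path by which messenger RNA leaves the ribosome. It was only 30 bp before the start of tmem-107, a gene of cilia on the opposite strand, and the snoRNA gene F39B2.14 was within 250 bp. The overlapping peak ranked 151 in replicate 1 with a signal value of 62.3, and 68 in replicate 2 with 25.38. It was the only IDR summit at a member within 250 bp of an snoRNA gene.

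At rps-11 the summit lay 356 bp upstream, at IDR rank 297 (chrIV:11602110-11602459) with a signal value of 57.59, and no other protein-coding gene shared it. It was rank 40 in replicate 2, the best rank of any member in that library, with a signal value of 28.9. In replicate 1 the peak inside the window, also 356 bp upstream, ranked 1743 with 26.64. A higher peak of replicate 1, at rank 235 with 52.2, overlapped the IDR peak but had its summit outside the window. Replicate 2 placed rps-11 higher than replicate 1 by either peak.

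The summit of rps-10, whose protein sits in the small subunit's head, was shared with rpl-24.1, whose protein reaches across to the small subunit. The 2 genes face away from each other across 609 bp, and the summit lay 371 bp upstream of rps-10 and 239 bp upstream of rpl-24.1, at IDR rank 299 (chrI:4584701-4585050). It ranked 379 in replicate 1 and 6647 in replicate 2. Members of a pair head to head with each other occurred in 3 places. The other 2 were rps-14 with rpl-36, 662 bp apart, and rps-30 with rpl-39, 498 bp apart. Each of these also shared its best pooled summit, at rank 915 for rps-14 and rpl-36 and at rank 828 for rps-30 and rpl-39. In replicate 1 the shared summits ranked 890 and 2138. In replicate 2 the best summits differed within these pairs, at rank 12779 for rps-14 and 2131 for rpl-36, and at 3290 for rps-30 and 2196 for rpl-39.

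The other small-subunit members had their IDR summits beyond the annotated end. At rps-4 it lay 214 bp beyond the end and 234 bp inside Y43B11AR.3 on the same strand, at rank 266 (chrIV:7083307-7083656). The overlapping peaks ranked 203 in replicate 1 and 1456 in replicate 2, where the summit lay inside rps-4. At rps-13, whose protein forms part of the bridge between subunits, the IDR summit lay 46 bp beyond the end at rank 391 (chrIII:6373876-6374225). It stood between converging ends with thoc-2, a gene of the mRNA export complex THO. Both libraries placed this peak high, at rank 512 with a signal value of 38.89 in replicate 1 and at rank 374 with 17.09 in replicate 2. At rps-2, whose protein sits at the entry of the messenger RNA channel, the summit lay 148 bp beyond the end at rank 432 (chrIV:7924975-7925324), again between converging ends, here with C49H3.3. The overlapping peak ranked 219 with 53.4 in replicate 1. In replicate 2 it ranked 483 with 16.3, and its summit lay 321 bp beyond the end.

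Among the large-subunit genes, rpl-27 had the only IDR summit in the coding sequence of a member, 81 bp before its end, at rank 90 (chrI:1835182-1835531). It ranked 107 with a signal value of 68.09 in replicate 1 and 163 with 20.75 in replicate 2, so both libraries placed it high. The start of egl-30, which encodes a G protein alpha subunit, was 304 bp further on in the same direction, and C53H9.4 also shared the summit. At rpl-3, a protein that reaches to the peptidyl transferase centre, the IDR summit at rank 177 (chrIII:3869364-3869713) lay 48 bp before the end in the 3′ UTR, where tir-1 ends on the opposite strand. It ranked 108 in replicate 1 and 5793 in replicate 2. In replicate 2 the best summit of rpl-3 lay instead 257 bp upstream, at rank 361, and replicate 1 had a summit at 222 bp upstream at rank 478, so both libraries held a high peak before the start.

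All 7 large-subunit genes with an IDR summit ranked higher in replicate 1 than in replicate 2 by the overlapping peak, which rpl-43 lacked in replicate 2. The same held for rps-2, rps-4, rps-10 and rla-1, and the reverse for rps-11, rps-13 and rps-26. The share over all IDR peaks was not counted, so this is not shown to be a trait of the large subunit. The other 4 large-subunit genes were as follows. The IDR summit of rpl-26, whose protein lies at the exit of the peptide tunnel, lay 156 bp beyond the end (chrII:8603562-8603911) and 109 bp before suf-1, a gene of messenger RNA cleavage, and the overlapping peak ranked 152 and 2713. At rpl-1 (chrI:2876596-2876945) it lay 463 bp upstream and 161 bp before the divergent gene Y71F9AL.9, with ranks of 310 and 1300. At rpl-43 (chrII:14155774-14156123) it lay 380 bp beyond the end and 181 bp inside xrn-2, an exonuclease gene, with rank 217 in replicate 1 and no overlapping peak in replicate 2. At rpl-36.A (chrII:11096054-11096403) it lay 313 bp beyond the end in an intron of nbs-1, with ranks of 265 and 11009. In replicate 2 the overlapping peaks of rpl-26 and rpl-36.A had their summits 164 bp and 208 bp further on than the IDR summit.

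The 101 bases at the replicate 1 summit beyond the end of rpl-26 and of rps-13 are shown for comparison with the upstream sequences. Neither holds GTCTCNCNNCG.

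rpl-26, replicate 1 rank 152 (chrII:8603670-8603770, plus strand): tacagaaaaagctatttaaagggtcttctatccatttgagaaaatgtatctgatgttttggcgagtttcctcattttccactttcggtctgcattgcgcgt

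rps-13, replicate 1 rank 512 (chrIII:6373928-6374028, minus strand): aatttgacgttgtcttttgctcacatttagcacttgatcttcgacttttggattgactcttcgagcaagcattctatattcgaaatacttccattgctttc

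The stalk genes encode P0, P1 and P2, which form the flexible arm that meets elongation factors. The IDR summit of rla-1 lay 164 bp beyond its end, in the coding sequence at the end of arl-13, at rank 416 (chrI:2068747-2069096) with replicate ranks of 733 and 2707. At rla-0 the best summit ranked 846 in the pooled list and 381 in replicate 1, where it lay 262 bp beyond the end, in an intron. This summit was also in the windows of tct-1 and F25H2.12 and within 250 bp of the snoRNA gene F25H2.14. The best summit of rla-2 ranked 2429 pooled and 1618 in replicate 1, 272 bp beyond the end. Neither rla-0 nor rla-2 had a summit in replicate 2.

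**Figure D2:**
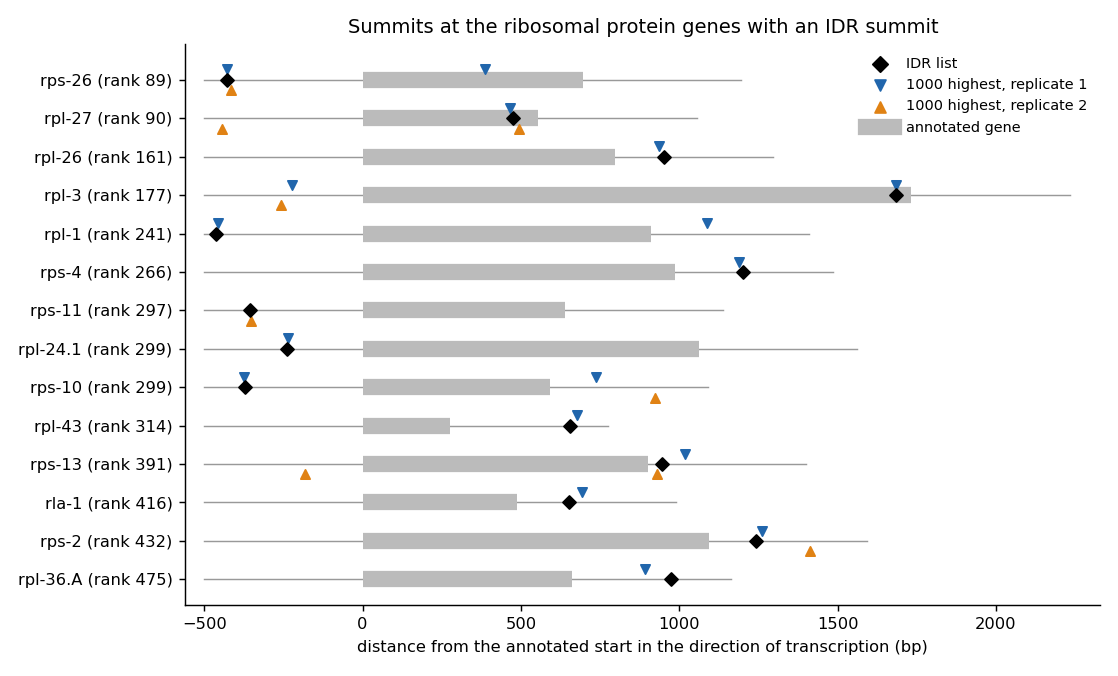
Summits in the windows of the 14 ribosomal protein genes with an IDR summit, by distance from the annotated start (x axis, bp). Grey bars are the annotated genes, thin lines the windows, diamonds IDR summits, and triangles summits among the 1000 highest peaks of replicate 1 (down) and replicate 2 (up). IDR summits lie upstream of the start in 5 genes and within or beyond the last 250 bp in the other 9.

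The position of the summits relative to the genes was sorted into 5 exclusive classes: within 250 bp of the start, within 250 bp of the end, elsewhere in the gene, and the remaining upstream and downstream flanks. Of the 14 pairs of a member and an IDR summit, 7 (50%) were near the end, 2 (14.3%) in the downstream flank, 4 (28.6%) in the upstream flank, 1 (7.14%) near the start and 0 elsewhere in the gene. Over the 598 such pairs of all protein-coding genes, the shares were 34.8% near the end, 13.5% downstream, 6.02% upstream, 18.7% near the start and 26.9% elsewhere in the gene. Members are short, which leaves little room outside the first and last 250 bp.

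The libraries differed in which flank led. Among the 476 highest peaks of replicate 1, 6 of 13 pairs at members were near the end and 3 in the upstream flank. Among those of replicate 2, 2 of 10 were near the end and 7 (70%) in the upstream flank, where the share over all genes was 10.2%. The 7 were rps-11 at rank 40, rps-26 at 68, rpl-15 at 80, rpl-7 at 283, rps-19 at 298, rps-28 at 335 and rpl-3 at 361, at distances of 257 to 444 bp before the start; rps-19 was named after its values were seen. Other genes shared 4 of these summits, namely tmem-107 at rps-26, K11H12.8 at rpl-15, hsr-9 at rps-19 and acs-19 at rpl-3. In replicate 1 the best summit stood further down the list for rpl-15 (rank 3716, 407 bp upstream), rps-28 (rank 2240, 421 bp upstream), rpl-7 (rank 2749) and rps-19 (rank 14326). For all genes the share of pairs near the end also differed between the libraries, at 38.2% in replicate 1 and 13.9% in replicate 2.

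A deeper cut gave the same 2 flanks. Among the 5000 highest peaks, 25 members (30.9%) had a summit in the 500 bp before the start in each library, against 3.08% of all genes in replicate 1 and 4.14% in replicate 2. In the 500 bp beyond the end there were 42 members (51.9%, all genes 8.85%) in replicate 1 and 17 (21%, all genes 3.92%) in replicate 2. The first 250 bp of the gene held a summit in 5 members (6.17%, all genes 3.11%) and 4 members (4.94%, all genes 2.07%). For the last 250 bp it was also 5 members (6.17%, all genes 1.79%) in replicate 1 and 4 (4.94%, all genes 1.08%) in replicate 2. Summits in both flanks were found at 11 members (13.6%, all genes 0.996%) in replicate 1 and 6 (7.41%, all genes 0.426%) in replicate 2. In bins of 100 bp the upstream summits of replicate 1 were most frequent 200 to 300 bp before the start, with 13.6 per 100 members and 0.651 per 100 genes overall. Replicate 2 had 9 such summits over the 81 members and 0.876 per 100 genes overall in the same bin. Beyond the end, replicate 1 reached 19.8 per 100 members at 200 to 300 bp (all genes 2.51), and replicate 2 reached 9.88 at 300 to 400 bp (all genes 0.981). Over all genes the highest bin beyond the end in replicate 1 was 100 to 200 bp, with 2.75 per 100 genes.

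**Figure D3:**
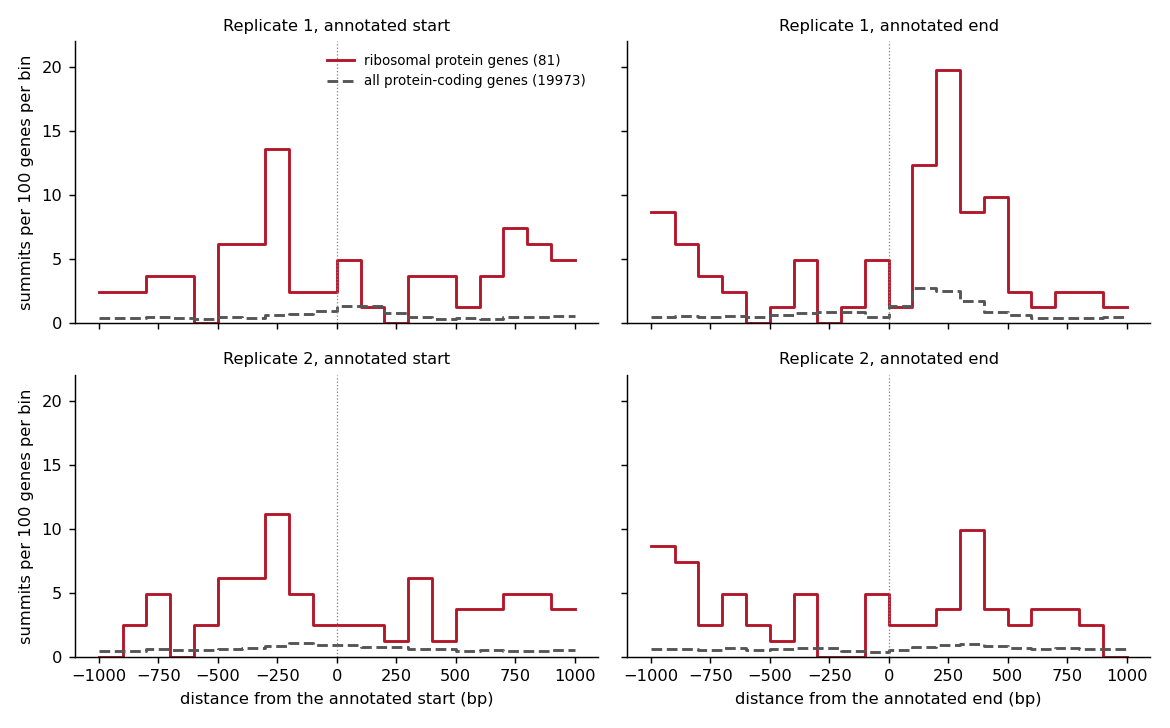
Summits per 100 genes in bins of 100 bp (y axis) by distance from the annotated start (left) and end (right, x axis in bp), among the 5000 highest peaks of each replicate, for 81 ribosomal protein genes (solid) and all 19973 protein-coding genes (dashed). The member line is highest 200 to 300 bp before the start in both replicates, and replicate 1 has a higher one 200 to 300 bp beyond the end.

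Neighbouring genes lay close to many members. Upstream, a protein-coding gene was within 500 bp of 29 members and within 1000 bp of 73. A protein-coding gene that did not overlap the member began or ended within 500 bp downstream of 53 members. It was on the same strand for 31 and on the opposite strand for 22. Genes overlapping a member's end were left out. Members such as rps-4, overlapped by Y43B11AR.3, and rla-1, overlapped by arl-13, thus count below as having none. In replicate 1, a summit among the 5000 highest lay beyond the end at 20 of the 31 members with a same-strand neighbour. The counts were 8 of the 22 with an opposite-strand neighbour and 14 of the 28 counted as having none. In replicate 2 the counts were 10 of 31, 4 of 22 and 3 of 28. Over all protein-coding genes the same arrangement gave 16.9%, 9.09% and 6.7% in replicate 1, and 7%, 3.59% and 3.17% in replicate 2. The highest share where the next gene followed on the same strand was thus also found over all genes. The part of the neighbours in these summits was not tested. The base composition at the summits differed little from that of the lists: member summits among the 1000 highest had a median GC content of 43.6% in replicate 1 (all 41.6%) and 46.5% in replicate 2 (all 45.5%).

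The replicates ranked single members differently. A summit among the 1000 highest peaks of both replicates was found at 9 of the 81 members, against 1.93% of all genes. These were rps-2, rps-10, rps-13, rps-16, rps-22, rps-26, rpl-3, rpl-27 and rpl-29. At 6 of them (all genes 1.32%) the replicate peaks themselves overlapped, the exceptions being rps-16, rps-22 and rpl-29. At rps-16 the replicate 1 summit (rank 972) lay inside the gene, near its upstream neighbour fib-1, which encodes fibrillarin, and that of replicate 2 (rank 358) lay 319 bp beyond the end. T01C3.11 shared both summits. At rpl-29 replicate 1 had its summit 283 bp beyond the end in an intron of thoc-7 (rank 562) and replicate 2 had it 267 bp upstream (rank 632), shared with B0513.4. At rps-22 the replicate 1 summit lay 284 bp beyond the end (rank 601), shared with F53A3.7 and mboa-6, and that of replicate 2 lay 52 bp inside the gene (rank 868), shared with polh-1.

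Over the 71 members with a summit in both libraries, Spearman's rho of the best ranks was 0.233. Over the 7832 protein-coding genes with a summit in both it was 0.382. Both are correlations across genes, which are not replicates and share summits with neighbours. Of the 71, 46 had the better rank in replicate 1 and 25 in replicate 2. The same split over the 7832 genes was not counted, so it is not shown to be particular to the members. A further 7 members had a summit in replicate 1 only and 2 in replicate 2 only, and rpl-34 had none in any list. The other member without a pooled summit was rpl-42, found only in replicate 2 at rank 25137.

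**Figure D4:**
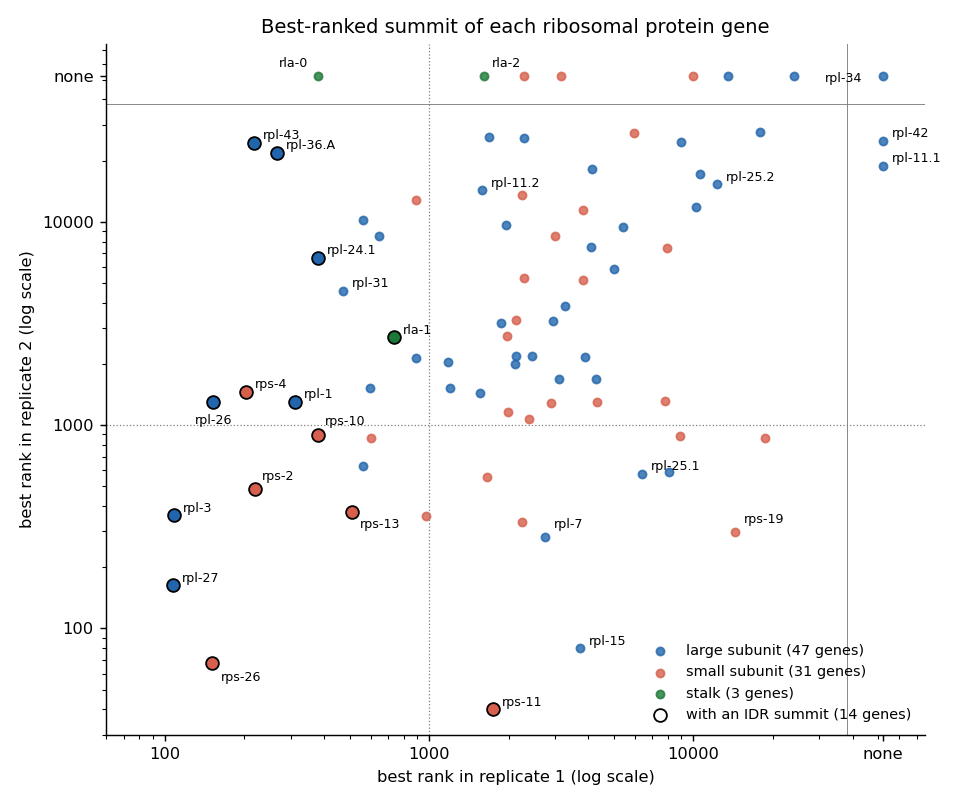
Best rank of each of the 81 ribosomal protein genes in replicate 1 (x axis) and replicate 2 (y axis), both on log scales with rank 1 highest and "none" for no summit, with dotted lines at rank 1000. Colours give the subunit and outlined points have an IDR summit; rps-26 and rpl-27 are high in both, rps-11 and rpl-15 in replicate 2, and rpl-43 and rpl-36.A in replicate 1.

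Some members have names of the same or a similar stem, and these differed in rank. The names alone do not show that such genes encode versions of the same protein. Of rpl-11, the copy rpl-11.2 on chromosome X had best ranks of 2030 pooled, 1588 in replicate 1 and 14288 in replicate 2, and rpl-11.1 on chromosome V had 24690 pooled, none in replicate 1 and 18920 in replicate 2. Of rpl-25, rpl-25.1 on chromosome X ranked 3920, 6382 and 576 in the same order, and rpl-25.2 on chromosome I ranked 11004, 12240 and 15318. In both cases the copy on chromosome X was the higher one in every list. The replicate 2 summit of rpl-25.1 at rank 576 was shared with glit-1. For rpl-24 the order depended on the library, with rpl-24.1 at 379 and 6647 in replicates 1 and 2 and rpl-24.2 at 8093 and 589. The neighbours rpl-41.1 and rpl-41.2 shared the replicate 2 summit at rank 1519, and in replicate 1 they ranked 599 and 1203. The similarly named rpl-36 and rpl-36.A ranked 890 and 265 in replicate 1, and 2131 and 21892 in replicate 2. The ranks of rpl-7 and rpl-7A were 2551 and 7518 in the pooled list.

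Repeated sequence bears on few members. Reads from near-identical copies can be lost or split, so the share of 31-base words of each window that occur once in the genome was counted. It was at least 95% for 76 members. The other 5 were rpl-2 (60.6%), rpl-7A (62.4%), rpl-37 (85.1%), rps-0 (85.9%) and rps-24 (91.9%). Their best pooled ranks ran from 3894 for rps-24 to 27019 for rpl-2. Whether this kept their peaks low was not tested. These genes were also singled out after their values were seen.

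Members that carry snoRNA genes stood lower than the others in replicate 1 and the pooled list, and higher in replicate 2. In all, 13 members host 19 snoRNA genes on their own strand. Of these 13 hosts 4 had an IDR summit, a higher share than the 14 of all 81 members, which include the hosts. Over all protein-coding genes the share was 2.44%. The 4 were rpl-26, rps-4, rpl-24.1 and rps-13, and the next in pooled rank were rpl-15 (1011) and rps-12 (1301). The median best rank of hosts was 2540 in the pooled list against 2090 for the other members, and 2749 against 2240 in replicate 1. In replicate 2 the hosts stood higher, at 1456 against 2451.5.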

How the data were processed

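The measurements were AMA-1 ChIP-seq of 2 biological replicates of N2 late embryos. Per the deposited text, the authors derived a relaxed list from each replicate's alignments and 1 further file, a pooled list from both, and the IDR list from these. The aligner, caller, versions and thresholds are not given in the sources examined. Depth is unknown, and no interval covers read sampling. The deposited signal value is a score of the caller, used for ranks. The deposited −log10 q-value and the ce10 lists were not used. The deposited summit offset gave each summit, 1-based on ce11. Genes came from Ensembl release 115 on the same assembly, and sequences from RefSeq. Python 3.11.15 with pandas 2.3.3 was used, after the counting had been tested on simulated data.

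Both samples are 1 group, so no test was made, and counts stand beside those over all 19973 protein-coding genes. Members and lists were chosen with earlier results of these data known. Named are members with an IDR summit or among the 1000 highest peaks of either replicate (at most 30), the best 3 per subunit, stalk genes, same-stem genes, up to 6 snoRNA hosts, members without a summit and the genes sharing these summits. Of 31 biogenesis symbols 4 were not found.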

Additional observations from a re-analysis of the deposited data

How the results depend on the processing

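The 14 members with an IDR summit became 13 (all genes 2.55%) with the highest peaks of replicate 1 and 10 (2.35%) with those of replicate 2. With 1000 bp flanks they stayed 14 (2.75%). They became 4 (1.24%) when only the upper 238 IDR peaks were kept and 27 (4.75%) with the 952 best pooled peaks. With the 217 IDR peaks found among the 1000 highest of both replicates they became 5 (1.07%). Windows changed the count to 7 (1.52%) without the downstream flank, 2 (1.13%) in the gene body and 8 (1.97%) with 250 bp flanks. When each summit counted only for its nearest protein-coding gene, 6 remained (1.7%). The 9 members among the 1000 highest peaks of both replicates became 4 at 500 peaks (all genes 0.946%), 18 at 2000 (3.81%), 1 in the gene body (0.911%) and 19 to 23 in single replicates (4.76% to 5.06%). The median best pooled rank of 2094 became 9578 in the gene body (all genes 10373.5). It became 4336.5 with 250 bp flanks (all genes 8940) and 2192 to 2241 in single replicates. The body medians cover only genes with a summit there. The bodies also differ in length, with a median of 754 bp for members and 2027 bp for all genes. These medians therefore do not show whether member bodies differ per length. Members with an IDR summit by an snoRNA gene rose from 1 (all genes 0.15%) to 5 within 500 bp (0.2%). They were 2 in replicate 1 alone (0.15%) and 1 in replicate 2 alone (0.175%). The 7 summits near a gene end (34.8% of pairs over all genes) became 3 within 100 bp (7.69%). They were 6 in replicate 1 alone (38.2%) and 2 in replicate 2 alone (13.9%). Fewer or narrower intervals lower such counts by construction, and the cause of the replicate difference was not tested. No paired analysis was possible because both samples belong to 1 group. Depth is unknown, so a missing summit was not separable from too few reads.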
